A study of Mus musculus with 20 samples.

Results

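The B cell receptor signalling genes are 10 named genes whose products sit at or just below the antigen receptor of B cells: Cd79a, Cd79b, Lyn, Blk, Syk, Btk, Blnk, Cd22, Cd72 and Ms4a1. They were read in 20 mouse arrays through the probe sets that the array's annotation gives to a single one of these symbols, and the brightest probe set of each gene by its mean over the 20 arrays stood for it. Of the 10 genes, 9 had such a probe set, with 14 probe sets among them, out of 18193 genes read in this way; all 9 were among the 14044 genes bright enough to be tested. Lyn, a Src family kinase that acts at the receptor, was found by this rule in no probe set and was not analysed here.

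The cells were 10 haematopoietic fractions of C57BL/6 mice obtained by cell sorting, each with 2 biological replicates. KSL and lineage marker-negative cells (LinNeg) are immature; the first name is used for fractions rich in stem cells. The mature fractions were B220(+) B lymphocytes (B), CD4(+) and CD8(+) T lymphocytes (CD4T, CD8T), NK1.1+ NK cells (NK), CD3ε(+)NK1.1(+) NKT cells (NKT), Ter119(+) erythroblasts (Erythroblast), Gr-1(+) neutrophils (Neutrophil) and Mac-1(+) monocytes/macrophages (Monocyte). No treatment or altered genotype is named for any of them, and the sources used here do not give the tissue of origin, the age of the mice or the remaining sort gates. The replicates are not tied to named animals, so the p-values measure the spread between these arrays and may include technical spread. In sorted fractions, fewer cells of a type and less RNA per cell cannot be told apart.

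As background, the B cell receptor is a membrane immunoglobulin that cannot signal alone. Its partner chains CD79a and CD79b carry the tyrosine motifs that Src family kinases such as LYN and BLK phosphorylate. SYK docks on the phosphorylated chains, the adaptor BLNK (also SLP-65) then brings BTK and phospholipase C gamma 2 together, and calcium and lipid signals follow. CD22 and CD72 are inhibitory receptors that recruit phosphatases, and CD20, the product of Ms4a1, is a membrane protein of mature B cells. SYK and BTK also act below Fc receptors and other receptors of myeloid cells.

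The promoters of the members show what lies upstream of genes that share a high level in the B arrays. RefSeq's GRCm38.p6 table of promoters, each running from 250 bases before a start to 50 bases after it, held 7 starts of 6 members: Cd79a, Syk (with 2 starts), Btk, Blnk, Cd22 and Cd72. Motifs of factors known from B cells and myeloid cells were searched on both strands: the early B cell factor core CCCNNGGG, the octamer ATGCAAAT, the PU.1-type Ets motif GAGGAA, the Runx motif TGTGGT and the E-box CAGCTG. The 4 promoters below hold the motifs in question, written 5′ to 3′ on the strand of the gene, with the motif in capitals: the Ets motif read on the opposite strand in Cd79a and Btk, the octamer on the opposite strand in Blnk, and the early B cell factor core in Cd22.
Cd79a (chr7:24897247-24897546, plus strand): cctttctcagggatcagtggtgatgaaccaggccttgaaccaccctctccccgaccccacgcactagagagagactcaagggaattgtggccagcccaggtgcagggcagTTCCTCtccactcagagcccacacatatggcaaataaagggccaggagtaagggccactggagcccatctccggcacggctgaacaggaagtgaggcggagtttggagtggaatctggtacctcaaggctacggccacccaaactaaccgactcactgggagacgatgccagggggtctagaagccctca
Btk (chrX:134583091-134583390, minus strand): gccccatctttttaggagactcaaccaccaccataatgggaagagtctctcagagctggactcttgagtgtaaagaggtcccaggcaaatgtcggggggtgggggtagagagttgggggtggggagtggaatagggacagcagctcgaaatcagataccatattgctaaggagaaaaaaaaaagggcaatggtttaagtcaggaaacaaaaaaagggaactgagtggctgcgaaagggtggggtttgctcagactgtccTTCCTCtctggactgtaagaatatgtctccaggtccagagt
Blnk (chr19:40994172-40994471, minus strand): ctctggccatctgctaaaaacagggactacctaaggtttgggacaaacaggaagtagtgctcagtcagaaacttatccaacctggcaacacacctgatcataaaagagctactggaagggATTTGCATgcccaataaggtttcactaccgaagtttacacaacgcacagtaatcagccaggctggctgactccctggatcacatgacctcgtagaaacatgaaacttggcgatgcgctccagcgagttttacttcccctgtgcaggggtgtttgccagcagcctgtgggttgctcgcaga
Cd22 (chr7:30878979-30879278, minus strand): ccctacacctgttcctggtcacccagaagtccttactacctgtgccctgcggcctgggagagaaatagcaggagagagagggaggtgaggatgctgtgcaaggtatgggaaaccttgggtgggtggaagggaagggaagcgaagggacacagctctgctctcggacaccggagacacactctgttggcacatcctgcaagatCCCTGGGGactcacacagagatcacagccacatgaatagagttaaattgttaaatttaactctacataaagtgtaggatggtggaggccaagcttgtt
The octamer stood in 1 of the 7 member promoters, that of Blnk at position -130, against 1.74% of all 32851 promoters of the table. The early B cell factor core was in 1 of 7, that of Cd22 at position -48, against 13.7% of the table. The Ets motif was in 4 of 7 (Cd79a at position -140, Btk at 9, Cd72 at -47 and the second start of Syk at -9), against 28.3%. The E-box was in 1 of 7, at the first start of Syk, against 16.3%, and the Runx motif in 0 of 7, against 16.8%. These matches are letters in a window and carry no measurement of binding. Only exact matches to these letters were counted, so sites of the same factors with other letters would be missed.

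Values are probe set intensities as deposited, whose trimmed mean was 100 on each array. Differences are on the log2(intensity + 6.75) scale, with the standard error and the Benjamini-Hochberg adjusted p of limma over all 14044 genes. Where a population lies near 6.75, the size of a difference depends on that added constant and the value is read for its direction and call only. A difference is called when its adjusted p is below 0.05 and its size is at least 1 on the log2 scale. Probe sets differ in how strongly they bind, so levels of a gene are compared between populations within a probe set and not between genes. The marker lists are the exception: intensities were summed over genes, and a cut-off of 100 was set for all of them. The brightest probe sets weigh most in those sums.

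The fractions were first set against marker lists. All 8 measured genes of the B cell list were above an intensity of 100 in the B arrays, with a summed intensity of 10471 to 11492, and the T cell, NK, and monocyte and macrophage lists had 0 genes above 100 there; the neutrophil list had 1. In NK the B cell list summed to 726 to 788, and 7 of its 8 genes, Pax5, Ebf1, Fcer2a, Cr2, Vpreb3, Pou2af1 and Fcrla, were at or under 100. That sum was higher in Neutrophil (1182 to 1601), NKT (1018 to 1028) and CD4T (944 to 1068). In these fractions, as in NK, the same 7 genes were at or under 100 and Cd37 alone was above. The NK arrays held the monocyte and macrophage list at 12584 to 14686, above the 5436 to 8272 of the Monocyte arrays, with 8 of its 9 genes above 100. They also held the neutrophil list at 9952 to 13094, with 4 of its 6 measured genes above 100 (S100a8 at a mean of 6570.1), and the dendritic list at 921 to 1187, with Itgax at a mean of 1010.4 and Zbtb46 and Xcr1 at or under 100. The Monocyte arrays in turn held the neutrophil list at 46192 to 55301, beside 59076 to 70668 in Neutrophil. In LinNeg the neutrophil list ran from 74.1 in one array to 2366 in the other, and in NKT the monocyte and macrophage list ran from 618 to 2624. Every value of the members in NK, Monocyte, LinNeg and NKT stands beside these sums, and their part in the results was not tested.

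All 9 members were higher in both B arrays than in any of the 18 other arrays. The share of all genes that were so is not given here. Among the members 7, Cd79a, Cd79b, Blk, Blnk, Cd22, Cd72 and Ms4a1, were called higher in B than in each of the other 9 populations. That call was made for 154 of all 14044 genes, which is 1.1%. Syk and Btk were the exceptions: their B level was the top of a range that also took in NK, myeloid and immature cells. All 9 members differed over the 10 populations by the F test (adjusted p from 1.3e-11 for Cd22 to 1.1e-07 for Blk), a call made for 76.5% of genes.

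**Figure D1:**
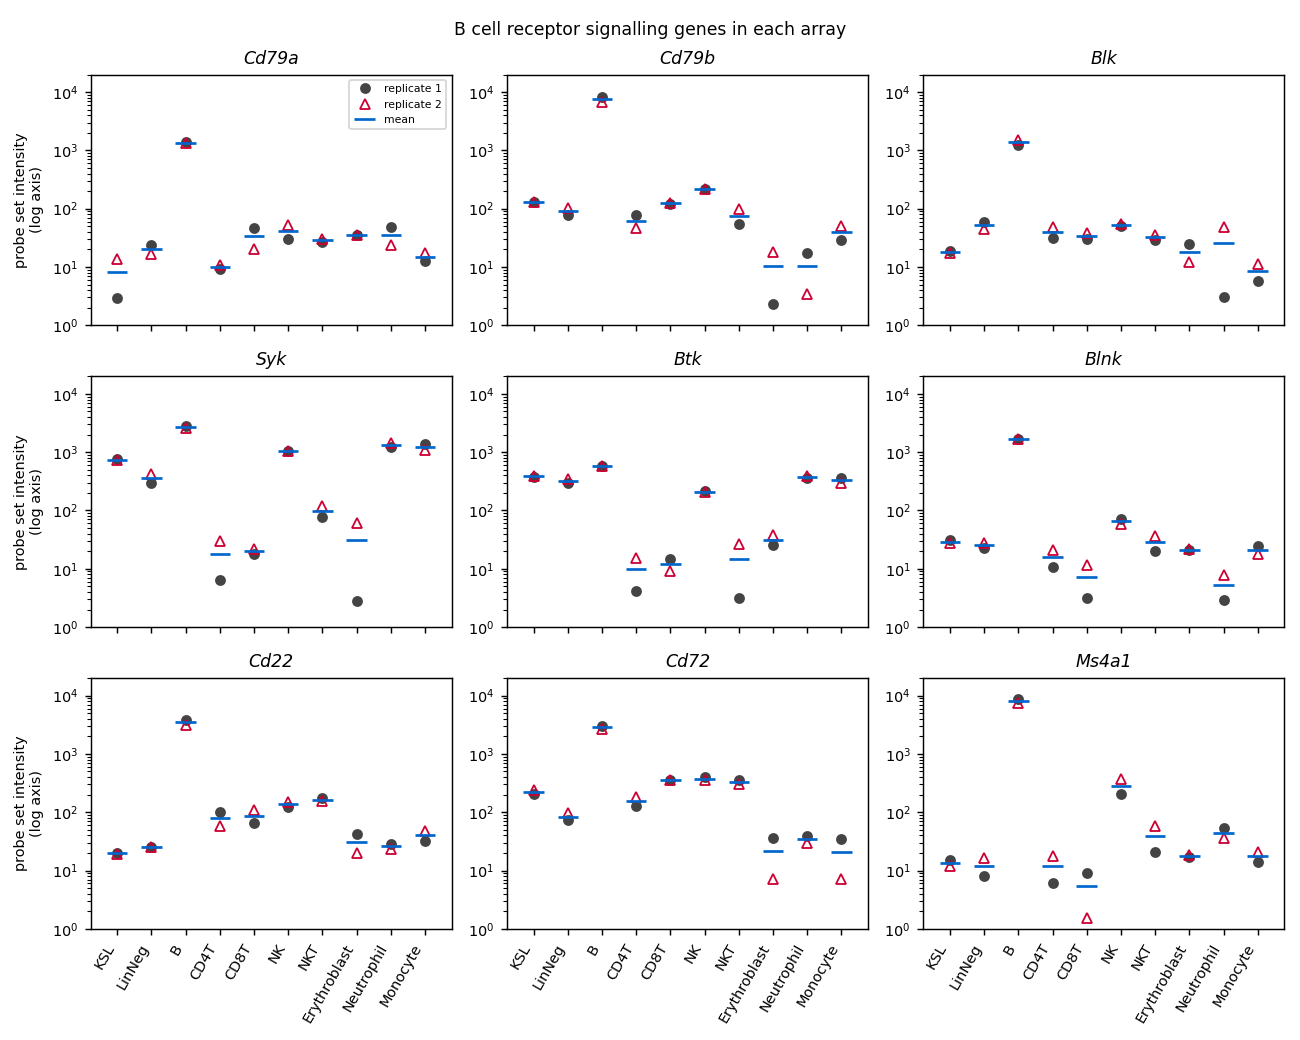
Intensity (log axis) of the 9 measured members in each of the 20 arrays, by population; filled circles are replicate 1, open triangles replicate 2 and bars the mean. In 7 panels the B arrays stand well clear of the rest, whereas Syk and Btk also sit high in KSL, LinNeg, NK, Neutrophil and Monocyte.

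The receptor chains were far higher in B than in every other array. Cd79a had intensities of 1389 and 1334 in B, and its 18 other arrays ran from 2.93 to 53.1 with a median of 24.2. The lower B array was thus 25.1 times the highest other array, one of NK. Cd79b had 8147 and 6799 in B. Its next populations were NK at 219 and 215, KSL at 128 and 131, and CD8T at 121 and 125. Erythroblast (2.36 and 18.4) and Neutrophil (17.3 and 3.47) were the lowest for Cd79b. The lowest B value of Cd79b was 31 times the highest other value, and NK, KSL and CD8T did not overlap with one another.

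The smallest differences of both chains were those from NK. Cd79a was higher in B than in NK by 4.85 ± 0.42 (SE) on the log2 scale (95% interval 3.96 to 5.74; adjusted p = 4.9e-08), and Cd79b by 5.06 ± 0.44 (4.14 to 5.97; adjusted p = 4.5e-08). Below NK, most neighbours in the order of Cd79a (Neutrophil, Erythroblast, CD8T and NKT, at means of 36, 35.9, 33.6 and 28.8) overlapped in their arrays.

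Among the receptor-proximal kinases, Blk followed the receptor chains. BLK is a Src family kinase known mainly from B cells. Its intensity was 1229 and 1524 in B. The next populations were LinNeg at 60.3 and 45.3 and NK at 50.5 and 54.9, which overlapped. Blk was higher in B than in NK by 4.53 ± 0.53 and than in LinNeg by 4.54 ± 0.53 (adjusted p = 2.6e-06 and 2.0e-06), its smallest differences. Its Neutrophil arrays disagreed, at 3.08 and 48, and Monocyte was lowest at 5.72 and 11.2.

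Syk, the kinase that binds the phosphorylated receptor chains, was highest in B but high in several other fractions. B had 2852 and 2621, Neutrophil 1224 and 1457, Monocyte 1392 and 1073, and NK 1039 and 1065. KSL stood at 756 and 725 and LinNeg at 299 and 430. NKT (77.3 and 117) lay between these and the lowest group, Erythroblast (2.82 and 60.5), CD8T (17.7 and 22) and CD4T (6.39 and 29.8), whose arrays overlapped. The Neutrophil and Monocyte arrays of Syk overlapped; the other neighbours from B down to NKT did not.

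The differences of Syk split in the same way. B was called higher than CD4T by 6.97 ± 0.57 (adjusted p = 2.2e-08), with CD8T, Erythroblast, NKT and LinNeg also called, at 6.69, 6.76, 4.75 and 2.91. From KSL the difference was 1.87 ± 0.57 (adjusted p = 0.016). From Neutrophil it was 1.03 ± 0.57 (95% interval -0.16 to 2.22; adjusted p = 0.15), from Monocyte 1.16 ± 0.57 (-0.03 to 2.34; adjusted p = 0.12) and from NK 1.37 ± 0.57 (0.19 to 2.56; adjusted p = 0.1), none of them called. These 3 turned into calls when an Erythroblast array, the population with the widest spread of Syk on the log2 scale, was left out: with both left out, the adjusted p was 0.014 for Neutrophil, 0.0085 for Monocyte and 0.0046 for NK at the same differences, while over all settings it ranged from 0.0029 to 1. The call against KSL was lost without any 1 of the B or KSL arrays (adjusted p from 0.065 to 0.083). The other 3 probe sets of Syk also had their highest mean in B. In 1 of them the B arrays (57.6 and 60.9) overlapped with Monocyte (58.2 and 39.5), and that probe set was dim.

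Btk, the Tec family kinase that acts on phospholipase C gamma 2, had the narrowest margin of B. Its intensities were 580 and 576 in B, 372 and 395 in KSL, 354 and 396 in Neutrophil, 364 and 295 in Monocyte, and 291 and 346 in LinNeg. The lower B array was 1.45 times the highest other array, and the KSL, Neutrophil, Monocyte and LinNeg arrays overlapped from each neighbour to the next. NK stood below them at 216 and 207. The T cell side was far lower, with CD4T at 4.15 and 15.5, CD8T at 14.9 and 9.21 and NKT at 3.14 and 26.9. Erythroblast was low too, at 25.1 and 37.3.

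For Btk, B was called higher than CD4T, CD8T, NKT and Erythroblast, by 3.97 (Erythroblast) to 5.23 (CD4T; SE 0.41 each; adjusted p from 1.5e-08 to 1.0e-07). From NK the difference was 1.43 ± 0.41 (adjusted p = 0.018), and this call was lost without any 1 of the B or NK arrays (adjusted p from 0.078 to 0.09). The differences from KSL (0.58, 95% interval -0.28 to 1.45, adjusted p = 0.33), Neutrophil (0.62, -0.25 to 1.48, adjusted p = 0.25), Monocyte (0.81, -0.06 to 1.67, adjusted p = 0.14) and LinNeg (0.85, -0.02 to 1.72, adjusted p = 0.13) were not called. These intervals leave room for a difference of more than 1 in B's favour in each case.

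Blnk, the adaptor that joins Syk to Btk and phospholipase C gamma 2, did not share the spread of the kinases it links. It had 1710.2 and 1679 in B and at most 71.5 elsewhere, in an NK array. NK (71.5 and 59.6) did not overlap with the next population, KSL (30.7 and 27.7), and Neutrophil was lowest at 2.89 and 7.81. Blnk was higher in B than in NK by 4.56 ± 0.38 (adjusted p = 2.9e-08).

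The inhibitory receptors differed in their second level. Cd22 had 3829 and 3178 in B, with NKT next at 175 and 155 and NK at 124 and 151. CD8T (65.2 and 109) and CD4T (102 and 58.7) overlapped below them, and the immature and myeloid fractions lay at means from 19.9 in KSL to 40.5 in Monocyte. In this probe set the T, NK and NKT arrays of Cd22 stood above the myeloid and immature arrays. The difference of B from NKT was 4.35 ± 0.33 (adjusted p = 8.1e-09). The second probe set of Cd22 had 407 and 370 in B and at most 24.1 in any other array; it did not show that order, with 2.29 and 17.9 in NK, 24.1 and 3.41 in CD4T and 1 and 9.4 in Monocyte overlapping.

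Cd72 had the smallest margin of B among the 7 genes called against every population. It had 3055 and 2728 in B, then 395 and 360 in NK, 364 and 354 in CD8T, 352 and 309 in NKT, and 208 and 241 in KSL. CD4T had 126 and 186, clear of CD8T, and LinNeg 72.5 and 95.4. Neutrophil, Erythroblast and Monocyte were at means of 34.8, 21.8 and 20.9 and overlapped. The lower B array was 6.9 times the highest other array, and the differences from NK, CD8T and NKT were 2.91, 2.98 and 3.10 (SE 0.43 each; adjusted p from 2.4e-05 to 4.7e-05).

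Ms4a1, which encodes CD20, had NK as a clear second population. It had 8633 and 7504 in B and 202 and 371 in NK. Neutrophil followed at 53.7 and 36.2 and NKT at 20.8 and 58.6, and the other 6 populations had means from 5.34 in CD8T to 18 in Erythroblast. The second probe set of Ms4a1 had 3827 and 3906 in B, 49.7 and 67.5 in NK, and at most 8.74 in the other arrays. B was higher than NK by 4.84 ± 0.45 (adjusted p = 1.3e-07).

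In all, 81 differences of B were computed for the members, and all of them were above 0, with no share of all genes given for this. Of the 81 differences, 74 were called and 7 were not, 4 of them of Btk and 3 of Syk. Against CD4T, CD8T, NKT and Erythroblast all 9 members were called higher, where 5.60%, 5.92%, 5.37% and 26.8% of all genes were. Against KSL, LinNeg and NK 8 of 9 were called higher, against 6.87%, 8.88% and 4.76% of genes. Against Neutrophil and Monocyte 7 of 9 were called higher, against 21.0% and 13.6%. In each of the 9 comparisons 0 members were called lower, where the share of all genes was 13.8% for KSL, 14.3% for LinNeg, 7.54% for CD4T, 6.14% for CD8T, 9.35% for NK, 7.69% for NKT, 18.0% for Erythroblast, 14.2% for Neutrophil and 13.6% for Monocyte. The 9 comparisons share the B arrays and so are not independent. With both NK arrays left out, or both Monocyte arrays, 7 members were still called against each remaining population. With both Erythroblast arrays left out there were 8, Syk being the addition. The shares of all genes in these settings are not given here.

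**Figure D2:**
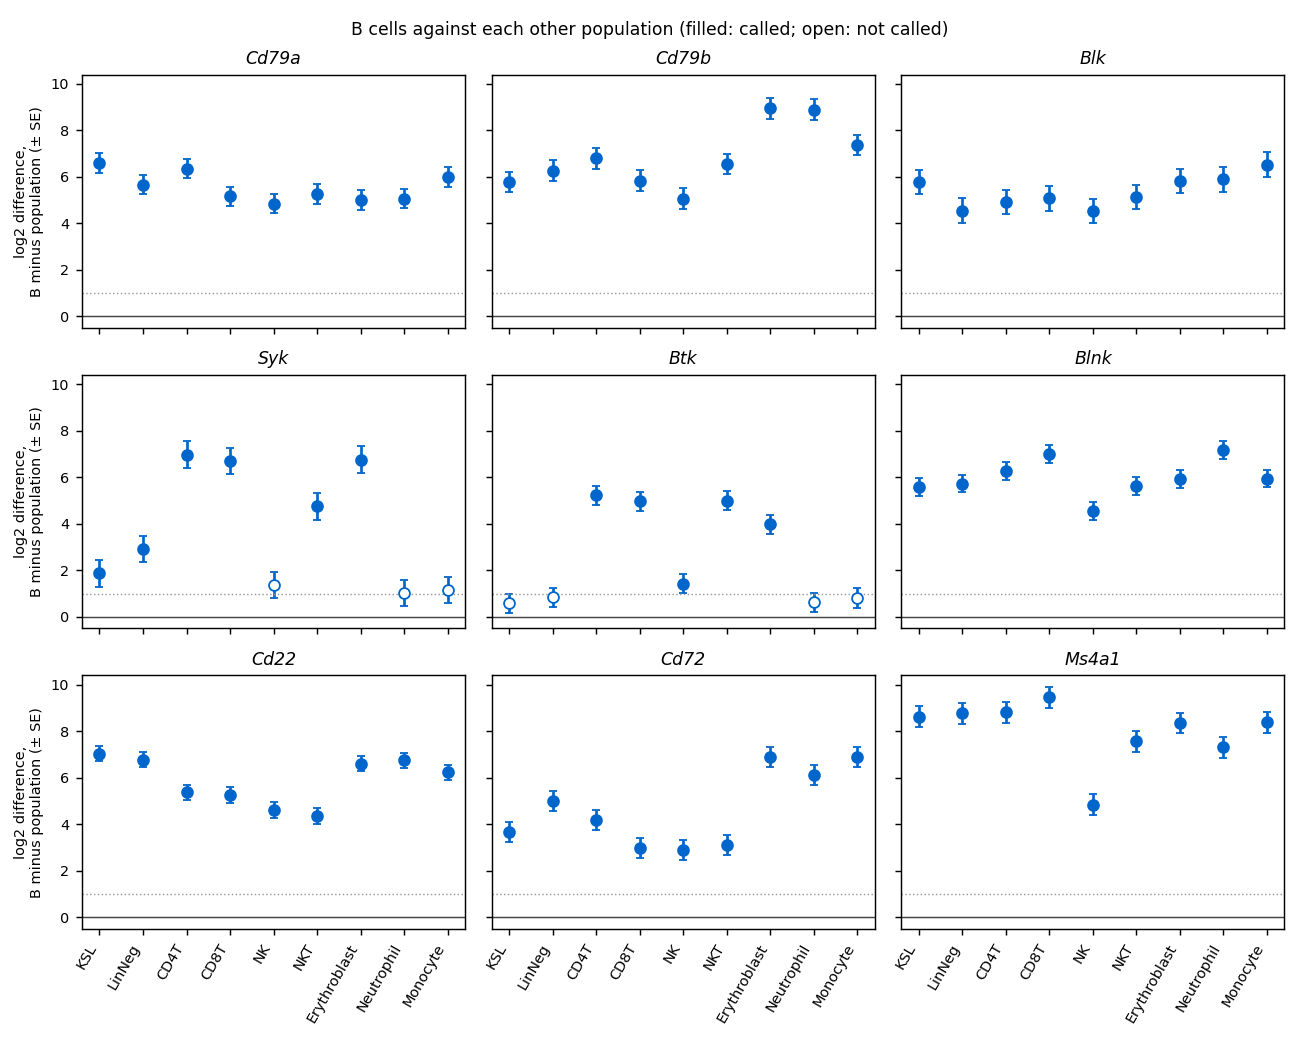
Difference of B from each other population for the 9 members, on the log2(intensity + 6.75) scale, with bars of 1 standard error; filled points are called, open points are not, and the dotted line marks a difference of 1. The 7 open points are Btk against KSL, LinNeg, Neutrophil and Monocyte and Syk against NK, Neutrophil and Monocyte.

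Which members are shared with NK, myeloid or immature cells was read against T cells, which carry another antigen receptor. Each of these populations was compared with the mean of CD4T and CD8T; the comparisons share those 4 T cell arrays, and the values are given side by side. Syk and Btk were called higher in all 5 populations. Syk was higher by 5.46 in NK, 5.80 in Neutrophil, 5.67 in Monocyte, 4.95 in KSL and 3.92 in LinNeg (SE 0.49 each; adjusted p at most 2.8e-06). Btk was higher by 3.68 in NK, 4.49 in Neutrophil, 4.30 in Monocyte, 4.52 in KSL and 4.25 in LinNeg (SE 0.36 each; adjusted p at most 2.1e-07).

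In NK, 5 of 9 members were called higher than in T cells and 0 lower, against 8.82% and 5.50% of all genes. Beside Syk and Btk they were Ms4a1 (4.29 ± 0.39, adjusted p = 9.3e-08), Blnk (2.07 ± 0.33, adjusted p = 0.0001) and Cd79b (1.26 ± 0.38, adjusted p = 0.02). The call of Cd79b was lost without any 1 of 3 arrays, both of NK and the second of CD4T (adjusted p from 0.068 to 0.12), as well as under the 5th percentile pseudocount (adjusted p = 0.11). Cd79a, with a difference of 0.90 ± 0.37 (adjusted p = 0.086), was not called, except without the first CD8T array (1.15, adjusted p = 0.038). Beside these values stands Jchain, a plasma cell gene, at 15.3 and 506 in the NK arrays. Of the 4 genes of the plasma cell list, 3 were above 100 in NK and Mzb1 was at or under 100. The monocyte and macrophage gene Csf1r stood at 7004 and 5725. The part of these genes in the result was not tested.

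In Neutrophil, 3 of 9 members were called higher and 3 lower than in T cells, against 14.2% and 22.8% of genes. Ms4a1 was the third higher gene, by 1.83 ± 0.39 (adjusted p = 0.00059). Its second probe set did not bear this out: its arrays were at 7.57 and 6.28 in Neutrophil, 2.46 and 4.19 in CD4T and 6.99 and 0.8 in CD8T, which overlap and are dim. The lower ones were Cd22 (-1.43), Cd72 (-2.55) and Cd79b (-2.57), with adjusted p from 1.0e-05 to 0.00032. In Monocyte, 2 were higher (Syk and Btk) and 3 lower, against 13.8% and 16.0%. Cd72 differed by -3.33 ± 0.38 (adjusted p = 5.5e-07), Blk by -1.53 ± 0.46 (adjusted p = 0.011) and Cd79b by -1.05 ± 0.38 (adjusted p = 0.031). Without the first Monocyte array the calls of Blk and Cd79b were lost (adjusted p = 0.12 and 0.3), which left Cd72 as the 1 lower gene. The call of Cd79b was also lost without the first CD4T array or either CD8T array (adjusted p from 0.055 to 0.098). It did not hold either with a pseudocount at the 5th percentile (adjusted p = 0.11) or the 50th (-0.84), quantile normalization (adjusted p = 0.083), array median centring (-0.97) or no mean-variance trend (adjusted p = 0.054). Blk in Neutrophil, not called at -0.90 ± 0.46, was called without the second Neutrophil array (-2.14, adjusted p = 0.00019). Cd22 in Monocyte, not called at -0.91 ± 0.29, was called without the second CD4T, first CD8T or second Monocyte array (from -1.08 to -1.16).

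In KSL, 3 of 9 members were higher and 1 lower than in T cells, against 13.6% and 8.64% of genes. The third higher gene was Blnk, at 1.07 ± 0.33 (adjusted p = 0.017), with intensities of 30.7 and 27.7; this call was lost without either KSL array, the first CD4T array or the first CD8T array (adjusted p from 0.057 to 0.11). The lower gene was Cd22, at -1.72 ± 0.29 (adjusted p = 9.6e-05), and Cd79a joined it without the second KSL array (-1.39, adjusted p = 0.026) or the second CD8T array (-1.09, adjusted p = 0.033). In LinNeg, 2 were higher and 2 lower, against 14.3% and 11.2%. The lower ones were Cd22 at -1.45 ± 0.29 (adjusted p = 0.00044) and Cd72 at -1.43 ± 0.38 (adjusted p = 0.0048), the latter lost without the first LinNeg array (adjusted p = 0.07). Blnk in LinNeg, at 0.91 ± 0.33, was not called, but was without the second CD4T array (1.06) or the second CD8T array (1.12). It was also called with a pseudocount at the 5th percentile (1.27, adjusted p = 0.04), quantile normalization (1.02, adjusted p = 0.019) or array median centring (1.04, adjusted p = 0.018).

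**Figure D3:**
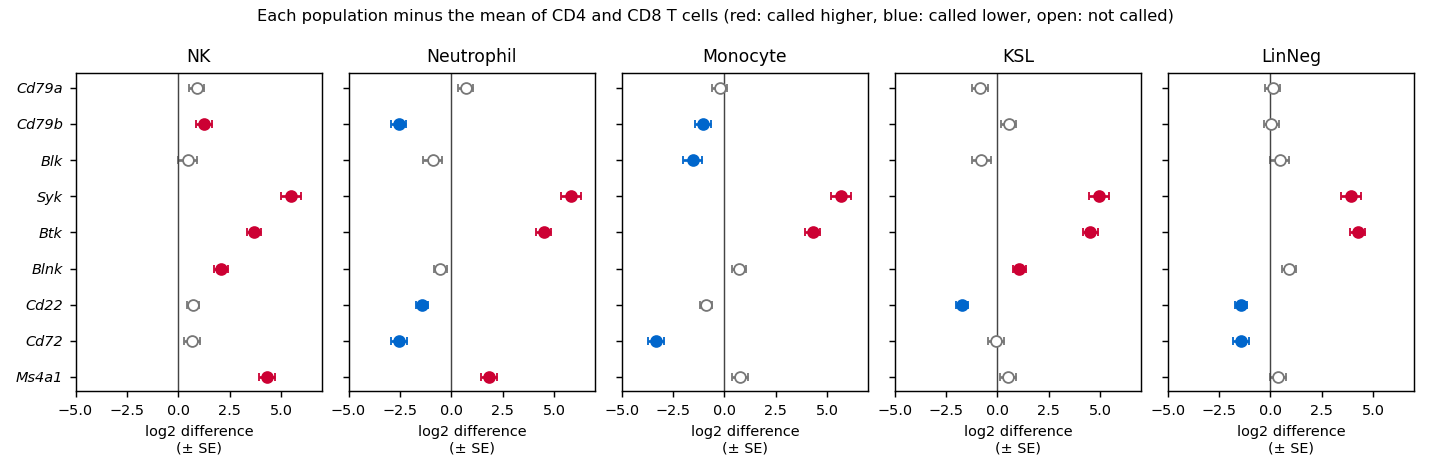
Difference of NK, Neutrophil, Monocyte, KSL and LinNeg from the CD4T and CD8T mean for the 9 members, on the log2(intensity + 6.75) scale, with bars of 1 standard error; red points are called higher, blue points called lower and open points not called. Syk and Btk lie to the right in every panel, and Ms4a1 lies at 4.29 in NK and at 1.83 in Neutrophil.

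Members that act at neighbouring steps have relatives that do the same job in other cells, and these were read over the same populations. Lcp2 encodes SLP-76, the adaptor that takes the place of BLNK in T cells and myeloid cells. It had intensities of 3.13 and 7.93 in B, against 1241 and 1056 in CD4T, 918 and 1023 in NK, 665 and 703 in Neutrophil and 517 and 689 in Monocyte. The difference of B from CD4T was -6.58 ± 0.23 (adjusted p = 5.1e-13) and that from Neutrophil -5.84 ± 0.23 (adjusted p = 4.5e-13). Its second, dimmer probe set was also low in B (21.7 and 24), a level it had in Erythroblast too (28.5 and 12.8).

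The phospholipases divided differently. Plcg2, the enzyme below BTK, had 1712 and 1587 in B, 1603 and 1510.2 in NK, 2363 and 1843 in Neutrophil, 1762 and 1710.2 in Monocyte, and 18 and 69.6 in CD4T. Its difference between B and NK was 0.08 ± 0.33 (95% interval -0.60 to 0.77; adjusted p = 0.91), and B was higher than CD4T by 5.25 ± 0.33 (adjusted p = 5.6e-10). Plcg1, the form used below the T cell receptor, was lower in B than in CD4T, with 112 and 143 against 1142 and 1121. The difference was -3.10 ± 0.44 (adjusted p = 3.2e-05). A dimmer probe set of Plcg1 did not show this, with 47 and 17.7 in B and 25.4 and 42.7 in CD4T. Another was at most 5.54 in any array. In the brightest probe set B was called higher than NK (56 and 30.8), Neutrophil (30.7 and 6.42) and Monocyte (10.6 and 46.4). So Plcg2 had the reach of Syk and Btk, and Lcp2 was low where Blnk was high.

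Other kinases of the same families were read in the same way. Txk, a Tec family kinase of T cells, had 22.9 and 9.31 in B and 574 and 560 in NKT, and its difference of B from CD8T was -4.38 ± 0.44 (adjusted p = 3.4e-07). Tec itself was spread over most fractions, with 877 and 739 in B and 816 and 767 in CD8T, and its difference between them was 0.03 ± 0.37 (95% interval -0.75 to 0.81; adjusted p = 0.98). Fyn, a Src family kinase of T cells, had 95.1 and 122 in B against 1324 and 991 in CD4T, a difference of -3.33 ± 0.38 (adjusted p = 1.9e-06). Fgr, a Src family kinase of myeloid cells, had 50.5 and 55.3 in B, 1973 and 1484 in Neutrophil, and 1493 and 1277 in NK, from which B differed by -4.54 ± 0.36 (adjusted p = 1.3e-08).

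Zap70, the T cell relative of Syk, depended on the probe set. Of its 3 probe sets, the one used for the counts had the highest mean on the log2 scale but not the highest intensities. It was highest in Erythroblast (546 and 388) and differed little between B (110 and 76.3) and CD4T (137 and 102). The calls of Zap70 as lower in B than in Erythroblast and Neutrophil rest on this probe set. Both other probe sets were high in T cells: 1 had 530 and 449 in CD4T against 14.8 and 12.3 in B, and the other 823 and 653 against 31.7 and 11.2. Lat2, an adaptor of B cells and myeloid cells, was dim, at 39.5 and 66.6 in B. It was called higher in B than in CD4T by 2.68 ± 0.54 (adjusted p = 0.0011), where CD4T (4.05 and 0.878) lay below the added constant. B was also called higher than Neutrophil (14.1 and 2.93) and Monocyte (8.49 and 15), but not than KSL, NK or NKT. Its other probe sets were dimmer still in B (12.9 and 11.3, and 13.3 and 4.36).

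**Figure D4:**
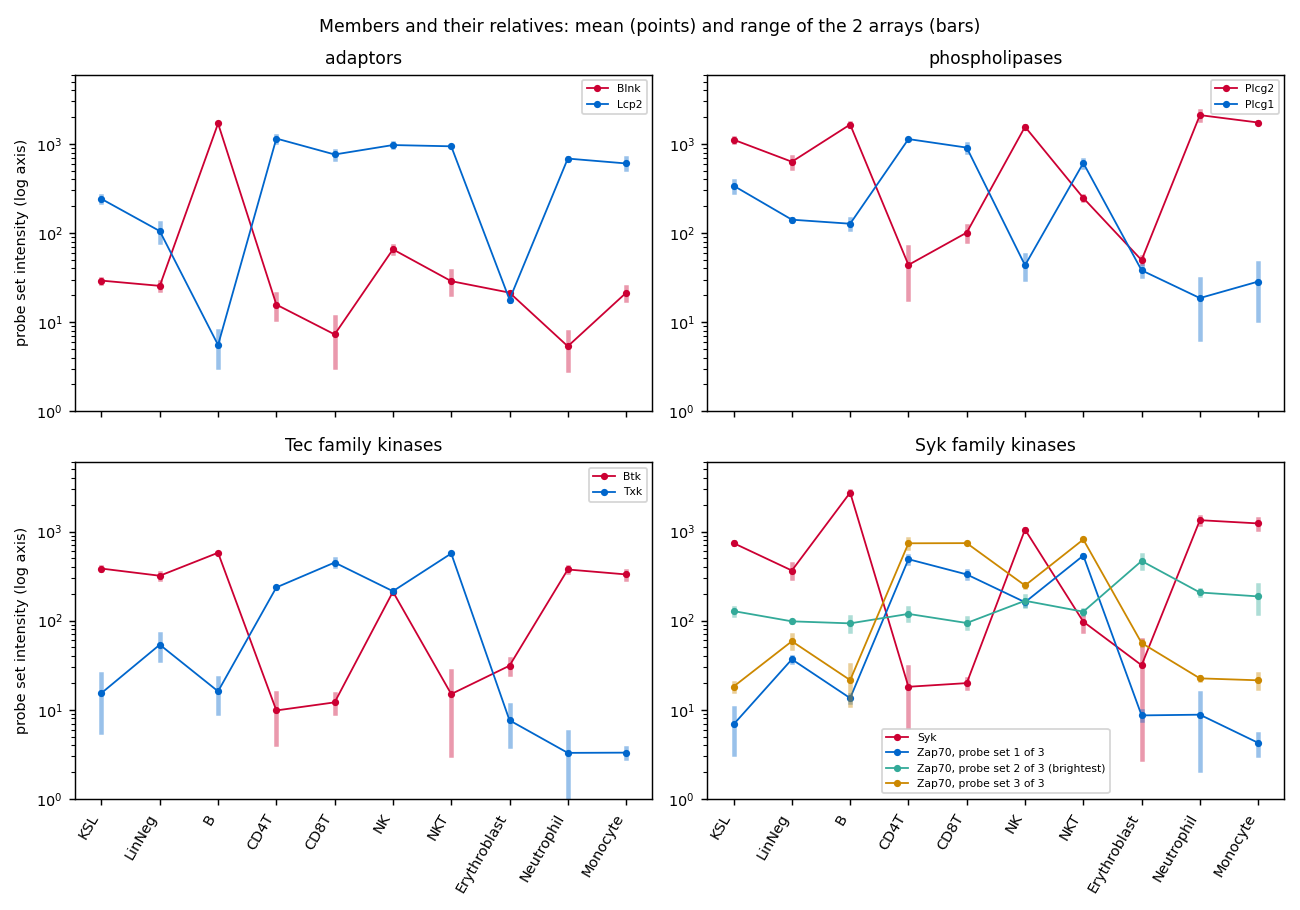
Mean intensity (log axis) by population of members and their relatives: Blnk with Lcp2, Plcg2 with Plcg1, Btk with Txk, and Syk with the 3 probe sets of Zap70; points are means and bars the range of the 2 arrays. Lcp2 has its lowest mean, 5.53, in B, where Blnk has its highest, 1694; levels of different genes are not comparable.

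The wider pathway was read from a list of 63 other genes of antigen receptor signalling, of which 54 were tested and 9 were not analysed here. Of the 54, 6 were called higher in B than in each other population: Cr2, Cd40, Siglecg, Bank1, Vav2 and Rasgrp3. Cr2, the complement receptor that lowers the threshold of the B cell receptor and a gene of the B cell marker list too, had 518 and 521 in B and at most 28.1 elsewhere, and its smallest difference was 4.15 ± 0.45 from Neutrophil (adjusted p = 2.7e-07). Rasgrp3, an exchange factor for Ras proteins, had 833 and 905 in B and 23 and 31.4 in NK, its smallest difference at 4.70 ± 0.46 (adjusted p = 2.4e-07). Bank1, a scaffold of B cells, had 3828 and 3959 in B but also 363 and 340 in Neutrophil and 404 and 274 in Monocyte.

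The remaining genes of that group had smaller margins. Siglecg, an inhibitory relative of Cd22, had 1087 and 991 in B and 141 and 128 in Neutrophil, a difference of 2.89 ± 0.48 (adjusted p = 4.9e-05). Cd40, a receptor for T cell help, had 957 and 1035 in B and 187 and 148 in NK, a difference of 2.53 ± 0.50 (adjusted p = 0.00084). Vav2, an exchange factor for small GTPases, had 181 and 229 in B and 61 and 35.2 in NK, a difference of 1.98 ± 0.44 (adjusted p = 0.0024). With both NK arrays left out 7 genes of the list were called, a setting whose share of all genes is not given here.

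Over the single comparisons the pathway list had calls in both directions, given here with the shares of all genes. Of its 54 genes, 40 were called higher in B than in Erythroblast (all genes 26.8%) and 4 lower (Lcp2, Pik3cd, Pik3r1 and Zap70; 18.0%), with a median difference of 2.10 against 0.04 over all genes. Against LinNeg 28 were higher (8.88%) and 5 lower (Lat, Lcp2, Pik3cd, Txk and Vav3; 14.3%), with a median of 1.13 against -0.10. Against KSL 24 were higher (6.87%) and 9 lower (13.8%). The lists of calls against the T cell fractions were shorter: 17 higher (5.60%) and 10 lower (7.54%) against CD4T, 20 (5.92%) and 8 (6.14%) against CD8T, and 18 (5.37%) and 12 (7.69%) against NKT, with medians of 0.42, 0.36 and 0.39. Against Neutrophil 18 were higher (21.0%) and 14 lower (14.2%), against Monocyte 16 (13.6%) and 11 (13.6%), and against NK 12 (4.76%) and 15 (9.35%). The medians of these last 3 were 0.15, 0.37 and 0.09, beside 0.08, 0.01 and 0.05 over all genes. The members' own medians in these 9 comparisons ran from 4.56 against NK to 6.60 against Erythroblast.

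Set against the T cell mean, the list had 19 genes higher in NK (all genes 8.82%) and 5 lower (Cd5, Itpr2, Lat, Plcg1 and Rasgrp1; 5.50%). In Neutrophil 21 were higher (14.2%) and 13 lower (22.8%), and in Monocyte 18 were higher (13.8%) and 15 lower (16.0%). In KSL 8 were higher (13.6%) and 16 lower (8.64%), and in LinNeg 7 were higher (14.3%) and 21 lower (11.2%). As shares of the 54 genes, the lower calls in Neutrophil and the higher calls in KSL and LinNeg were near those of all genes. All 54 differed over the populations by the F test, which called 76.5% of all genes.

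Genes whose pattern was most like that of each member were ranked by Pearson correlation over the 10 population means. The ranking is a description over points that share arrays. Symbols ending in Rik, or starting with Gm or LOC and digits, were left out before ranking, so closest means closest among the remaining genes. Cd79a was closest to Spib (r = 0.965), Fcrla and Fcer2a (0.958 each), and Ms4a1 to Fcmr (0.981), Ly6d (0.970) and Srpk3 (0.967). Blnk was closest to Purb and Rasgrp3 (0.976 each) and Tnfrsf13c (0.972), and Blk to Carmil1 (0.956), Ebf1 (0.955) and Igkv6-14 (0.948). Cd79b was closest to Niban3 (0.947), Snx30 (0.940) and Ift22 (0.931), and Cd22 to Ighv14-2 (0.976), Akap12 (0.963) and Tmem163 (0.940). Cd72 was closest to Slc9a7 and Cbll1 (0.957 each) and Cox7c (0.950).

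Syk and Btk had like genes in common. Syk was closest to Plcg2 (0.981), Wdfy4 (0.980) and Napsa (0.967), and Btk to Ago4 (0.963), Wdfy4 (0.958) and Napsa (0.947), and the correlation between Syk and Btk was 0.930. Btk had its lowest correlation among the members with Cd72, at 0.035; outside B, Cd72 was higher in CD8T than in Neutrophil and Btk higher in Neutrophil than in CD8T.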

How the data were processed

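RNA of 10 sorted fractions (2 arrays each) was hybridised to Mouse Genome 430 2.0 arrays, which hold 45101 probe sets. Per the labels' protocols, labelled cRNA came from total RNA equivalent to 3000 cells after two-cycle cDNA synthesis, which favours 3' ends: the 3' to 5' ratio of Gapdh ran from 2.422 in Neutrophil to 5.982 in Erythroblast and was 4.613 in B. The deposited values are linear intensity values; their trimmed mean, without the lowest and highest 2% of probe sets, was 100 on every array, but the sources used here do not name the summarisation software. The number of arrays limits the precision.

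Of the probe sets 34945 had 1 symbol, 932 several and 9160 none, beside 64 control probe sets. The scale was log2(intensity + 6.75, the 25th percentile), and per gene the probe set with the highest mean on it was taken. Genes whose highest population mean was not above 4.89 were left out, so a gene could enter through 1 population alone. Analysis used limma 3.58.1 in R 4.3.3, with 1 level per population, all 20 arrays, a mean-variance trend and 14 contrasts (10 residual and 8.46 prior degrees of freedom). The steps were tested on simulated data. Named genes are the members, 3 like genes per member, pathway genes called against all 9 populations, family relatives and marker genes. Members and lists were chosen with earlier results of these data known. Alternatives were other pseudocounts, filters, normalizations and probe set rules, no trend, treat, a replicate block and leaving out each array; leaving out both NK, Monocyte or Erythroblast arrays was added after seeing the data.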

Additional observations from a re-analysis of the deposited data

How the results depend on the processing

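Of the 74 called differences of B, 72 kept their direction and call in every alternative and array left out; those of Syk from KSL and Btk from NK did not, and under the 5th percentile pseudocount their adjusted p was 0.094 and 0.12. Of the 24 called differences from the T cell mean, 15 kept their call throughout, and 4 of the other 9 lost it only when tested against a difference of 1 (limma's treat). Syk, not called against NK, Neutrophil and Monocyte, was called with a pseudocount at the 50th percentile (adjusted p from 0.0077 to 0.023) and, against NK and Monocyte, with the mean of its probe sets (0.0029 and 0.0057). No result reversed. Members lower than T cells in Monocyte numbered 1 in place of 3 with the pseudocount at the 50th percentile and 1 under treat; those lower in KSL and in LinNeg were 0 each under treat. Leaving out single arrays gave 1 to 4 in Monocyte, 1 to 2 in KSL and 1 to 2 in LinNeg. Among arrays with the same replicate number, deviations from population means correlated between -0.09 and 0.21 over 45 pairs (1 above 0.1). These values are mostly low, but with 2 arrays per population they cannot tell whether the numbers pair the arrays. With the replicate number as a block, no member call changed. In that setting 7 members were still called against each other population, with the share of all genes not given here. Other scaling moved the median of all genes by at most 0.18 (Neutrophil minus the T cell mean, median centring); the 75th percentile filter, which changes the genes tested, moved it by 0.34 in B minus Erythroblast. The causes were not tested. With 2 arrays per population, dim genes are the least certain, since values near the pseudocount have little signal over background.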

Other observations

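Jchain, which encodes the joining chain of secreted antibodies, was highest in LinNeg, at 3138 and 2777, and had 632 and 379 in B. Of the 4 genes of the plasma cell list, Mzb1 and Prdm1 were at or under 100 in LinNeg, and Prdm1 was in B. The receptor chain genes were low in the same LinNeg arrays: Cd79a had 24.3 and 16.9 and Cd79b 77 and 104. The list of early B cell genes was carried by Dntt in KSL, where it summed to 1965 to 2905, and Vpreb1, Igll1 and Rag1 were at or under 100 there. In B none of the 4 genes of that list exceeded 100, and its sum was 95.7 to 97.2. Of the plasmacytoid dendritic list, whose cells can also carry B220, Siglech, Bst2, Ccr9 and Cox6a2 were at or under 100 in B, and Spib alone was above.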
